A study of Macaca mulatta with 16 samples.

Results

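NDUF genes encode the nuclear part of respiratory complex I, the NADH:ubiquinone oxidoreductase of the inner mitochondrial membrane. They were taken as all entries of the count table whose gene symbol starts with NDUF, which gave 37 of 19425 genes, with 29 subunit genes (NDUFA, NDUFB, NDUFC, NDUFS and NDUFV) and 8 assembly factor genes (NDUFAF). The libraries came from cardiac tissue of 8 rhesus macaques (Macaca mulatta), fixed in formalin and embedded in paraffin (FFPE). Method QE was the Qiagen AllPrep kit for FFPE tissue with extra ethanol washes once paraffin had been removed with xylene, and Method BL was the CELLDATA RNAstorm kit for FFPE tissue with a lengthened protease step at lysis. With 1 library from each animal by either method there were 16 libraries in 8 pairs, and the question was how far the level of a transcript depends on the extraction. All animals belonged to a study of pressure overload of the right ventricle, and the labels do not say which animals were operated, which part of the heart was taken, or the sex and age of an animal. The Method BL library names end in B for 5 animals and in R for 3 animals (r15045, r15089 and rh2957), with no meaning given.

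Complex I takes electrons from NADH, passes them through iron-sulfur clusters to ubiquinone and pumps protons across the membrane. Its N module oxidizes NADH, its Q module reduces ubiquinone, and its proximal and distal membrane arms hold the proton pumps, whose core subunits are the ND proteins encoded by the mitochondrial genome. Nuclear subunits are made in the cytosol and imported, and assembly factors help to join the modules but are not part of the finished enzyme. Cardiomyocytes are packed with mitochondria and hold large amounts of this enzyme.

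NDUFB8 and NDUFV2 were listed by an Ensembl identifier only and were matched to RefSeq genes by their place in Mmul_10, so they stand outside the 37 members and their values are given beside them. No entry was found by symbol or matched identifier for the subunit genes NDUFA3, NDUFA7, NDUFA13, NDUFAB1, NDUFB6, NDUFC1 and NDUFS5. These genes were therefore not analysed here. NDUFA4, which is now assigned to cytochrome c oxidase, and its relative NDUFA4L2 carry the NDUF name but lie outside complex I, and are counted among the 29 subunit genes. All 37 entries were annotated as protein coding, lay on 16 chromosomes and included 2 genes of chromosome X (NDUFA1 and NDUFB11).

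The libraries of Method QE held 19.3 to 25.7 M gene counts each (M, 1000000) and those of Method BL 14.999 to 25.8 M. The members lay at 0 counts in no library except NDUFAF8, which had 40 counts in all, between 0 and 6 per library, with 4 libraries at 0. NDUFAF8, the partner of NDUFAF5, was too low to be tested, and the other 36 members passed the filter on low counts. Cardiomyocyte markers were present in all 16 libraries: the 7 markers with an entry (TNNI3 had none) summed to 21083, 25404 and 31832 CPM (counts of a gene per 1000000 gene counts; lowest, median and highest library) with Method QE and to 11491, 23139 and 30291 CPM with Method BL. CPM values here are scaled by TMM factors, which set the bulk of genes equal between libraries. In such bulk libraries, fewer cardiomyocytes and less RNA per cardiomyocyte cannot be told apart.

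NRF1 is a transcription factor known to bind upstream of many respiratory chain genes, so the 200 bases upstream of each RefSeq gene start were searched on both strands for GCGCANGCG, a part of its palindromic site (N stands for any base). It was present upstream of 4 of 37 members (10.8%) and of 1191 of 20770 genes with such a window (5.73%). The 4 windows are printed because the members are read as a group below, each 5′ to 3′ on the strand of the gene, with the match in capitals. They lie in Mmul_10 at chr6:1765741-1765940 (NDUFS6, plus strand), chr11:4742227-4742426 (NDUFA9, plus strand), chr11:94814451-94814650 (NDUFA12, minus strand) and chr20:1985395-1985594 (NDUFB10, plus strand).
NDUFS6: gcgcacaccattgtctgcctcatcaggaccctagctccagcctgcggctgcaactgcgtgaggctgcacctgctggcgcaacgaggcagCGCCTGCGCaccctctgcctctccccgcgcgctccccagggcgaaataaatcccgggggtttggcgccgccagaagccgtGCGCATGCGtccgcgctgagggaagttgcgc
NDUFA9: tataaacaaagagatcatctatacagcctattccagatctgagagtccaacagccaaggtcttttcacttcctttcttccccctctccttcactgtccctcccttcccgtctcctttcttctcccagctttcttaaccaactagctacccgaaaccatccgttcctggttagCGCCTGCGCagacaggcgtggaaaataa
NDUFA12: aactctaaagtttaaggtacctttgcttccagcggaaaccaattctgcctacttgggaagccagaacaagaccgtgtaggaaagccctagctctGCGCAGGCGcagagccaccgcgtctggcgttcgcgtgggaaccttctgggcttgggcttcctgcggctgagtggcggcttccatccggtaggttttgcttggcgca
NDUFB10: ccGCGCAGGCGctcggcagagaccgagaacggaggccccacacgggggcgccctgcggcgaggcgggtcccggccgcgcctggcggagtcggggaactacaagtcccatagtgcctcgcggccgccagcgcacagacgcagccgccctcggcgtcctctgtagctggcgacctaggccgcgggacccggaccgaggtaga
NDUFS6 held 2 matches and the others 1 each. The first match starts at -111 from the gene start in NDUFS6, at -28 in NDUFA9, at -106 in NDUFA12 and at -198 in NDUFB10. A match is a description of the letters and not a site shown to be bound. None of these windows overlapped a gene of the deposited table.

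The level of the members, per kilobase (kb) of the longest RefSeq transcript, differed widely between genes. NDUFA4 was the most abundant member, with 316 ± 64.9 CPM per kb with Method QE and 279 ± 102 CPM per kb with Method BL (SD, n = 8 each). It was followed by NDUFB5 of the distal arm at 120 ± 24.02 CPM per kb with Method QE and 108 ± 40.0 with Method BL, NDUFB10 of the distal arm at 108 ± 21.5 and 88.7 ± 32.4, and NDUFA5 of the Q module at 105 ± 18.5 and 94.0 ± 29.7 (Method QE, then Method BL, SD, n = 8 each). NDUFA4L2 had the lowest level of the subunit genes, at 0.415 ± 0.178 CPM per kb with Method QE and 0.342 ± 0.0924 with Method BL. Assembly factors lay lower than subunits. The median level was 45.3 CPM per kb over the subunits and 4.93 over the assembly factors with Method QE, against 38.6 and 4.74 with Method BL.

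The highest assembly factor per kb was NDUFAF3, at 23.4 ± 2.86 CPM per kb with Method QE and 22.8 ± 2.23 with Method BL (SD, n = 8 each), and 25 of 29 subunits lay above it with Method QE and 26 with Method BL. NDUFAF3 and NDUFAF4 are known as partners that join the Q module early in assembly. NDUFAF4 followed with 18.2 ± 2.94 CPM per kb with Method QE and 15.1 ± 3.55 with Method BL. Neighbours in the order of levels were mostly not apart: with Method QE, the 8 libraries of a member overlapped those of the next one in 33 of 36 neighbouring pairs, and with Method BL in 35 of 36. The exceptions with Method QE were the steps below NDUFA4, NDUFB11 and NDUFAF7, and with Method BL the step below NDUFAF2.

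**Figure D1:**
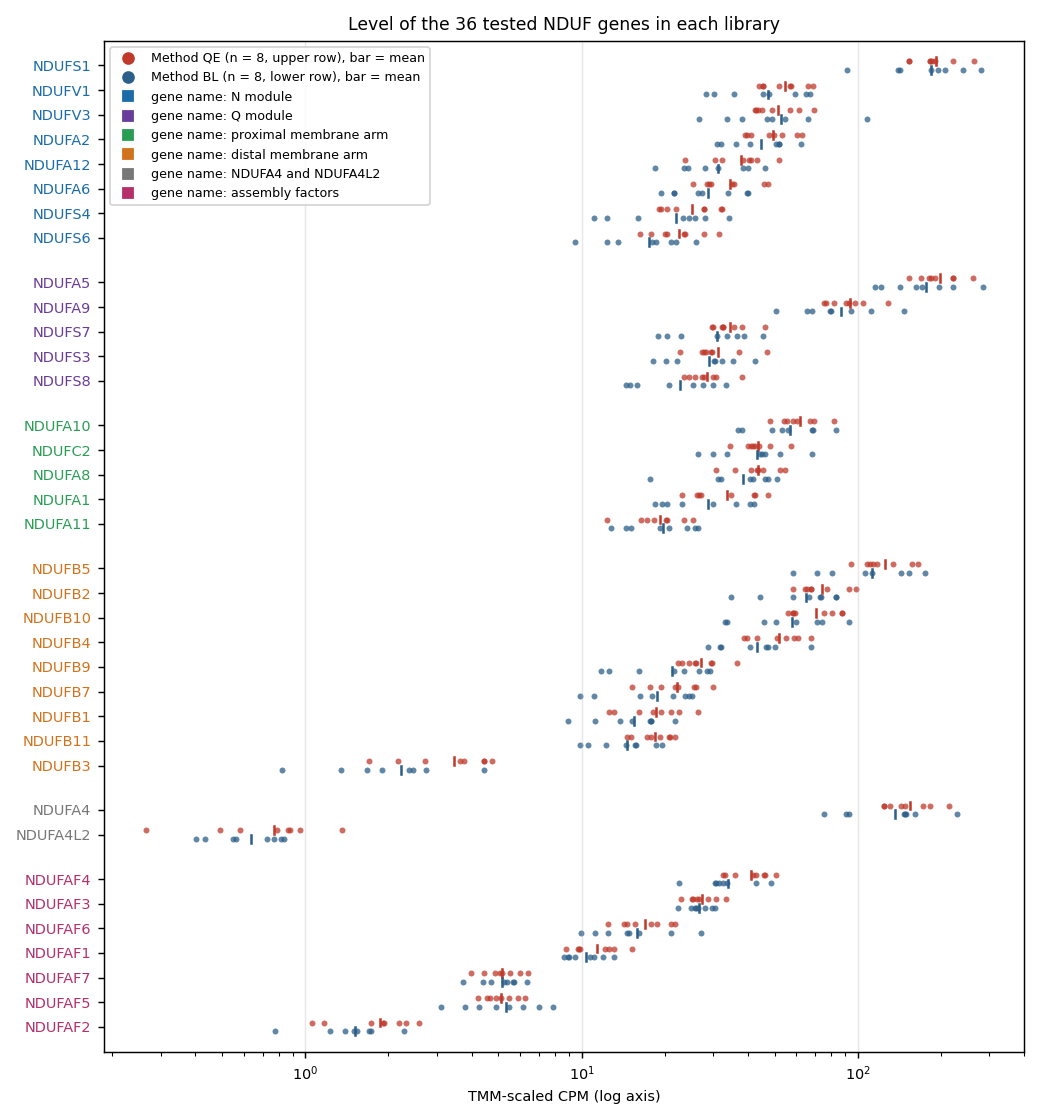
TMM-scaled CPM of the 36 tested members on a log axis, 1 point per library, with Method QE above Method BL for each gene and a bar at the mean of the 8 libraries. The libraries of both methods overlap for every gene, and the Method BL points reach lower than the Method QE points for most subunits. The assembly factors stand at the bottom, where NDUFAF4 (means of 41.1 CPM with Method QE and 34.1 CPM with Method BL) and NDUFAF3 (27.4 and 26.7 CPM) lie above some of the subunits.

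No member passed the test between the methods. With edgeR's quasi-likelihood test and the animal as a block, 303 of 14165 genes tested (2.14%) passed the adjusted threshold of 0.05, of which 121 (0.854%) were higher and 182 (1.28%) were lower with Method QE, while 0 of 29 subunits and 0 of 7 assembly factors did. At an unadjusted p under 0.05, 13 subunits and 1 assembly factor were counted, each with the higher level with Method QE, beside 2552 of all genes (18.0%), of which 1185 (8.37% of all genes) were higher with Method QE. DESeq2 called 3 subunits and 1 assembly factor (NDUFB11, NDUFB9, NDUFS6 and NDUFAF4) beside 592 of 14165 genes (4.18%), and limma-voom called 0 members. Without animal r15045, edgeR called 4 subunits (NDUFA1, NDUFB10, NDUFB9 and NDUFS8) beside 355 of 14148 genes (2.51%), and with any other animal left out it called 0 members.

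The fold changes of the subunits were small and mostly above 0. The log2 fold change, Method QE minus Method BL, was above 0 for 28 of 29 subunits, with a median of 0.25 and a range of -0.023 to 0.68, beside 50.7% of all genes above 0 and a median of 0.0036 over all genes tested. For the assembly factors it was above 0 for 6 of 7, with a median of 0.13. These directions depend on how the libraries are scaled: relative to total counts, without scaling factors, the median of all genes shifted to -0.24, that of the subunits was 0.015 (16 of 29 above 0) and that of the assembly factors -0.10 (2 of 7 above 0). Relative to the median of all genes, the subunits lay higher by 0.25 under either scaling, and the assembly factors by 0.13.

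**Figure D2:**
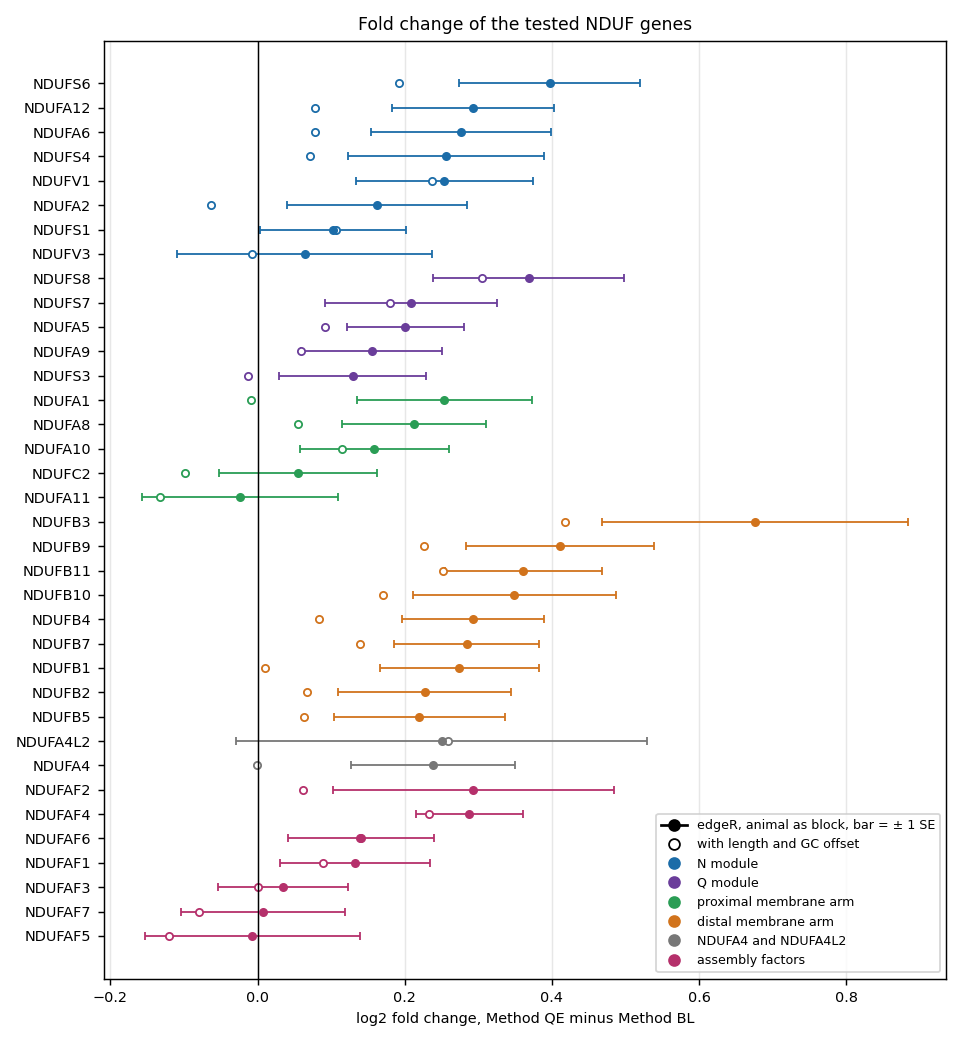
Log2 fold change (Method QE minus Method BL) of the 36 tested members, with filled points and bars of 1 standard error from edgeR with the animal as a block, and open points after an offset for transcript length and GC content. Filled points lie between -0.023 and 0.68 and no member passed the adjusted test, and most open points lie nearer to 0 than the filled ones.

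Among the 3 subunits with the smallest p, 2 are small proteins of the distal membrane arm. NDUFB11, encoded on chromosome X from 47101870 to 47104633 (minus strand, ENSMMUG00000054993), had 14.6, 18.5 and 21.8 CPM with Method QE and 9.88, 15.1 and 19.5 CPM with Method BL (lowest, median and highest of 8 libraries). The methods overlapped, but within animals Method QE was higher in 8 of 8, the only subunit with this pattern, beside 306 of all genes tested (2.16%). Its log2 fold change was 0.36 ± 0.11 (SE, edgeR adjusted p = 0.1000).

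NDUFB3, on chromosome 12 from 88342334 to 88347875 (plus strand, ENSMMUG00000060044), had the highest log2 fold change of the subunits and a low level. It had 1.70, 3.68 and 4.74 CPM with Method QE and 0.824, 2.13 and 4.44 CPM with Method BL (lowest, median and highest of 8 libraries), which rest on 15 to 110 counts per library. Its log2 fold change was 0.68 ± 0.21 (SE, edgeR adjusted p = 0.112). Method QE gave the higher level in 6 of 8 animals, and the lower one in r16010, which held the highest Method BL value, and in r15045.

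NDUFS6, a zinc-binding subunit that helps to anchor the N module, lies on chromosome 6 from 1765941 to 1805143 (plus strand, ENSMMUG00000004447). It had 16.3, 22.0 and 31.5 CPM with Method QE and 9.48, 18.3 and 25.9 CPM with Method BL (lowest, median and highest of 8 libraries). The lowest Method BL library was that of animal rh2957, and the groups overlapped. The fold change on the log2 scale was 0.40 ± 0.12 (SE, edgeR adjusted p = 0.115), and Method QE was higher in 6 of 8 animals.

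At the other end, NDUFA11, a membrane arm subunit that sits at the contact of complex I with complex III in supercomplexes, was the only subunit with a fold change below 0. It lies on chromosome 19 from 5832773 to 5840894 (minus strand, ENSMMUG00000016665) and had 12.3, 19.3 and 25.3 CPM with Method QE and 12.7, 20.0 and 26.3 CPM with Method BL (lowest, median and highest of 8 libraries). Its log2 fold change was -0.023 ± 0.13 (SE, edgeR adjusted p = 0.947), and 3 of 8 animals were higher with Method QE. The interval of 1 standard error around it includes 0.

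Before division by length, NDUFA5 had the highest mean CPM of the subunits with Method QE, and NDUFS1 had it with Method BL. NDUFS1 had 153, 184 and 264 CPM with Method QE and 91.1, 189 and 280 CPM with Method BL (lowest, median and highest of 8 libraries), with animal r16010 highest by both methods and animal rh2957 lowest by both. NDUFA5, a Q module subunit, lies on chromosome 3 from 149962658 to 149980481 (minus strand, ENSMMUG00000017321) and had 154, 187 and 262 CPM with Method QE and 116, 167 and 283 CPM with Method BL (lowest, median and highest of 8 libraries). Animal r16010 was highest with both methods, and the range was wider with Method BL. The fold change on the log2 scale was 0.20 ± 0.080 (SE, edgeR adjusted p = 0.205). NDUFA4L2, known in human cells as a target of hypoxia-inducible factor, lies on chromosome 11 from 56802047 to 56804932 (minus strand, ENSMMUG00000021786) and had 0.265, 0.826 and 1.36 CPM with Method QE and 0.402, 0.643 and 0.834 CPM with Method BL (lowest, median and highest of 8 libraries). Its log2 fold change was 0.25 ± 0.28 (SE). It had 5 to 36 counts per library, and 2550 bases of it overlap SHMT2, which lies on the other strand and had 2444 counts in all against 241 for NDUFA4L2, so its value is uncertain.

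The core subunits, which carry the redox chemistry, had fold changes from 0.10 to 0.37. NDUFS8, which holds a pair of iron-sulfur clusters on the way to ubiquinone, had a log2 fold change of 0.37 ± 0.13 (SE, edgeR adjusted p = 0.156). NDUFV1, the flavoprotein that binds NADH, had 0.25 ± 0.12 (SE, edgeR adjusted p = 0.288), and NDUFS7, which carries the last cluster before ubiquinone, had 0.21 ± 0.12 (SE, edgeR adjusted p = 0.371). NDUFS3, a scaffold of the Q module, had 0.13 ± 0.0995 (SE, edgeR adjusted p = 0.533), and NDUFS1, the large iron-sulfur subunit, had 0.10 ± 0.099 (SE, edgeR adjusted p = 0.627). For NDUFS1, 3 of 8 animals had the higher level with Method QE, and for NDUFV1 7 of 8.

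The genes listed by identifier lay in the same range. NDUFV2, an iron-sulfur subunit next to NDUFV1, had a log2 fold change of 0.28 ± 0.088 (SE, edgeR adjusted p = 0.116). NDUFB8 of the distal arm had 0.28 ± 0.12 (SE, edgeR adjusted p = 0.236).

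By module, the distal membrane arm held most of the subunits with an unadjusted p under 0.05, with 7 of 9 and a median log2 fold change of 0.29. Of all genes tested, 18.0% had an unadjusted p under 0.05, and 8.37% had it with the higher level with Method QE. Its fold changes lay between 0.22 for NDUFB5 and 0.68 for NDUFB3, and those of NDUFB9, which belongs to the LYR family, and NDUFB10, which carries disulfide bonds of the intermembrane space, were 0.41 and 0.35. The others of this arm were NDUFB4 (0.29), NDUFB7 (0.28), NDUFB1 (0.27) and NDUFB2 (0.23). The N module had 3 of 8 at an unadjusted p under 0.05 and a median of 0.25, with NDUFA12 at 0.29, NDUFA6 at 0.28, NDUFS4, whose loss causes Leigh syndrome in humans, at 0.26, NDUFA2 at 0.16 and NDUFV3 at 0.064. The Q module had 2 of 5 and a median of 0.20, with NDUFA9 at 0.15. The proximal membrane arm had 1 of 5 and a median of 0.16, with NDUFA1 at 0.25, NDUFA8 at 0.21, NDUFA10 at 0.16 and NDUFC2 at 0.055. NDUFA4 had a log2 fold change of 0.24 ± 0.11 (SE, edgeR adjusted p = 0.280), near that of the subunits of complex I. The distal arm also had the shortest transcripts, with a median of 651 bases. The medians were 711.5 bases in the N module, 1059 in the Q module and 934 in the proximal arm. Differences between modules, and the part of length in them, were not tested.

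Of the assembly factors, NDUFAF4 had the smallest p of all members and the highest CPM of the factors. It lies on chromosome 4 from 76403933 to 76412407 (plus strand, ENSMMUG00000018843) and had 32.5, 42.2 and 50.7 CPM with Method QE and 22.5, 32.0 and 48.5 CPM with Method BL (lowest, median and highest of 8 libraries). Animal r16010 was highest and animal rh2957 lowest with both methods, and Method QE was higher in 8 of 8 animals. Its log2 fold change was 0.29 ± 0.073 (SE, edgeR adjusted p = 0.0593, and 0.0243 from DESeq2). Leaving out 1 animal at a time kept this value between 0.25 and 0.33.

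NDUFAF2, a relative of NDUFA12 that is known to help the N module join, had the same fold change at a much lower level. It lies on chromosome 6 from 59334841 to 59532321 (plus strand, ENSMMUG00000021813) and had 1.06, 1.92 and 2.58 CPM with Method QE and 0.776, 1.52 and 2.27 CPM with Method BL (lowest, median and highest of 8 libraries). These levels rest on 19 to 49 counts per library. The fold change on the log2 scale was 0.29 ± 0.19 (SE, edgeR adjusted p = 0.448), and 6 of 8 animals were higher with Method QE.

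NDUFAF5, which hydroxylates an arginine of NDUFS7, was the assembly factor with the lowest fold change. It lies on chromosome 10 from 52728137 to 52764259 (minus strand, ENSMMUG00000012354) and had 4.22, 5.00 and 6.25 CPM with Method QE and 3.10, 5.18 and 7.92 CPM with Method BL (lowest, median and highest of 8 libraries). Its log2 fold change was -0.0071 ± 0.15 (SE, edgeR adjusted p = 0.986). The others were NDUFAF6 at 0.14, NDUFAF1, a member of an early membrane arm assembly complex, at 0.13, NDUFAF3 at 0.035 and NDUFAF7, a methyltransferase, at 0.0077. NDUFAF8, on chromosome 16 from 77583481 to 77585108 (plus strand, ENSMMUG00000037732), had 0, 4, 0, 6, 1, 0, 5 and 2 counts with Method QE and 3, 4, 1, 6, 0, 3, 1 and 4 counts with Method BL, in animals r12075, r15045, r15089, r16010, r16116, rh2740, rh2957 and I30. A count of 0 allows up to 3 counts, so no difference was detectable at this depth.

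The animals differed in the direction and size of the difference. The median difference over the 29 subunits, in log2 CPM of Method QE minus Method BL, was 0.75 in animal rh2957, with 29 of 29 subunits higher with Method QE. It was 0.45 in animal r16116, 0.43 in I30 and 0.33 in rh2740, with 28 of 29 higher in each. It was 0.17 in animal r15089 (23 of 29), -0.0080 in r12075 (13 of 29), -0.028 in r16010 (14 of 29) and -0.18 in r15045 (4 of 29). So 5 animals had a median above 0 and 3 had one below 0, while over all genes the median difference of an animal lay between -0.020 and 0.024. For the assembly factors the median difference was 0.54 in animal rh2957 (7 of 7 higher) and lay between -0.062 and 0.25 in the others.

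**Figure D3:**
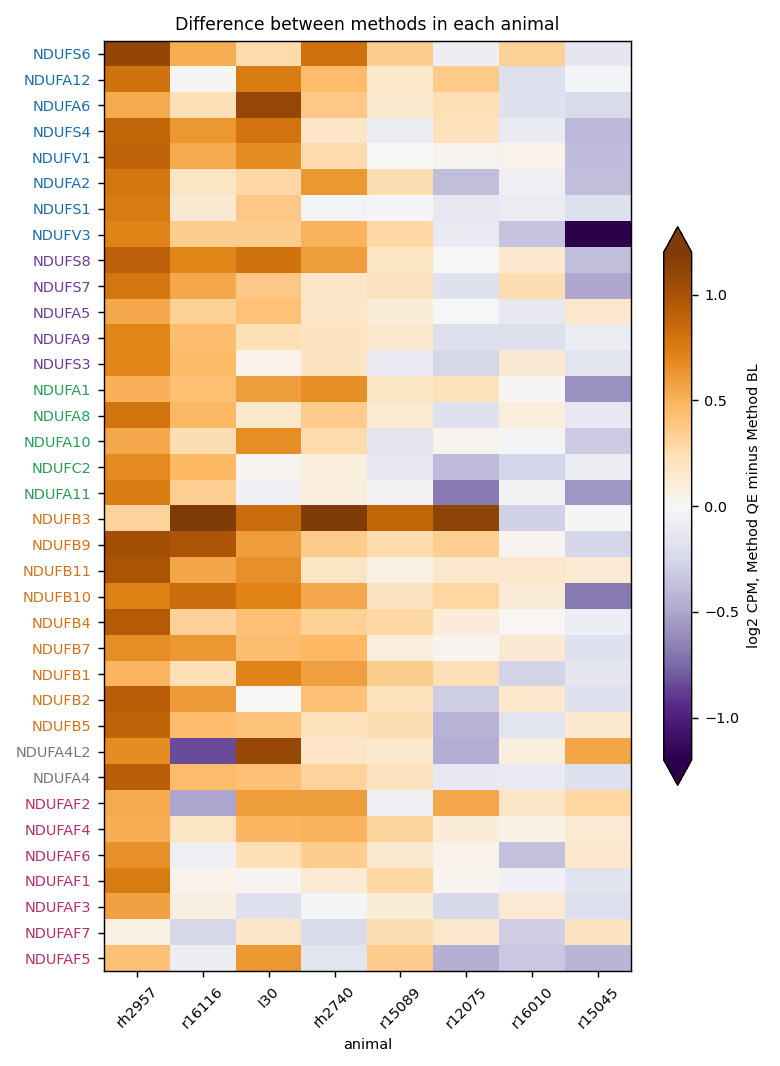
Difference in log2 CPM (Method QE minus Method BL) of each tested member in each animal, with genes in rows by module and animals in columns from the highest to the lowest median difference. The column of animal rh2957 is above 0 for 29 of 29 subunits, and that of animal r15045 is below 0 for most subunits, with 4 of 29 above 0.

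In summed CPM over the 29 subunits, animal rh2957 had 1431 CPM with Method QE and 844 with Method BL, and animal r15045 had 1436 with Method QE and 1676 with Method BL. Over the 8 animals the sum lay between 1355 and 2046 CPM with Method QE and between 844 and 2134 CPM with Method BL. The highest library was thus 1.51 times the lowest with Method QE and 2.53 times with Method BL. The standard deviation of log2 CPM was larger with Method BL for 28 of 29 subunits, with a median of 0.28 with Method QE and 0.47 with Method BL, beside 55.7% of all genes tested. For the assembly factors it was larger with Method BL for 4 of 7. Animal rh2957 was the lowest Method BL library for 22 of 29 subunits, and animal r16010 the highest for 18. With Method QE, the lowest library was animal r16116 for 10 subunits and I30 for 7, and the highest was r16010 for 12 and rh2740 for 12.

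Cardiomyocyte markers and mitochondrially encoded transcripts moved between the libraries of an animal as well. The 7 cardiomyocyte markers summed to 21509 CPM with Method QE and 11491 with Method BL in animal rh2957, and to 25993 and 30291 CPM in r15045, the only animal with the lower sum with Method QE. Their median log2 fold change was 0.33, above 0 for 6 of 7, and 0 passed the adjusted test from edgeR (3 at an unadjusted p under 0.05). Of markers of other cell types in heart tissue, 5 of 5 adipocyte markers lay below 0 (median -0.45), 6 fibroblast markers had a median of -0.15 and 5 endothelial markers one of 0.066. The median was 0.12 over 5 smooth muscle and pericyte markers, 0.10 over 5 macrophage and leukocyte markers and 0.68 over 2 erythrocyte markers. Of these 6 lists 0 genes passed the adjusted test from edgeR, and 5 had an unadjusted p under 0.05. The share at this threshold was 18.0% of all genes tested, with 8.37% higher with Method QE. The 7 mitochondrially encoded ND genes of complex I summed to 94826 CPM with Method QE and 64366 with Method BL in animal rh2957, and to 72163 and 163896 CPM in r15045. The part of either in the subunit differences was not tested.

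**Figure D4:**
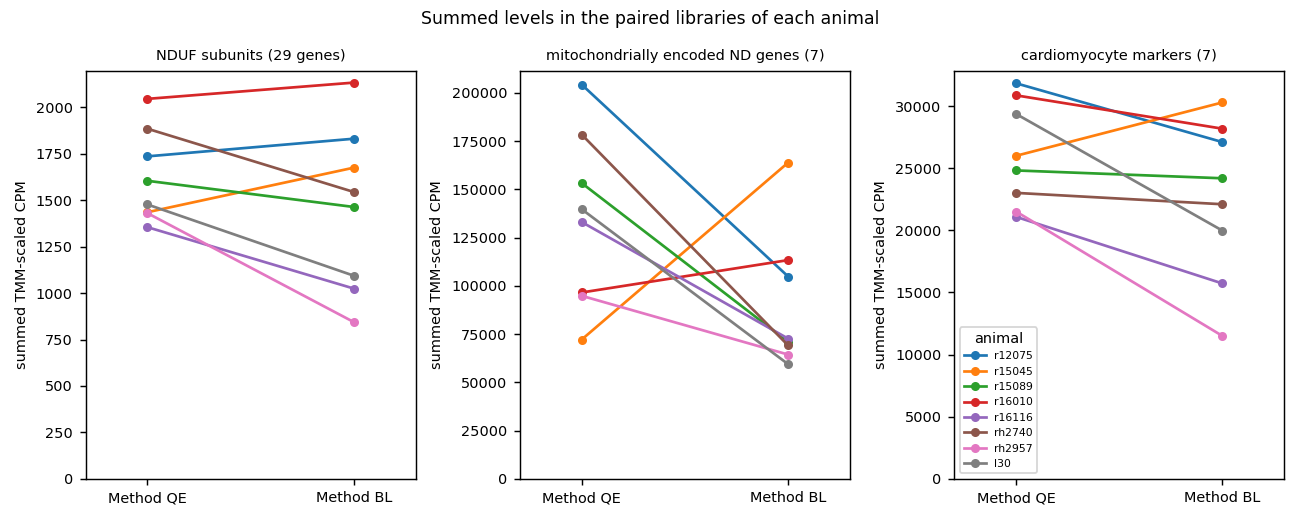
Summed TMM-scaled CPM of the 29 subunit genes, the 7 mitochondrially encoded ND genes and the 7 cardiomyocyte markers, with a line joining the Method QE and Method BL libraries of each animal and axes from 0. Subunit sums lie between 1355 and 2046 CPM with Method QE and between 844 and 2134 CPM with Method BL, and the line of animal r15045 is lower with Method QE in all 3 panels.

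As a share of all gene counts, with no scaling, the subunits were higher in some animals and lower in others. They took 0.125%, 0.144% and 0.204% of the counts (lowest, median and highest library) with Method QE and 0.115%, 0.153% and 0.205% with Method BL. In 4 of 8 animals Method QE had the higher share, and the median of the paired differences was -0.00036 percentage points. Mitochondrially encoded protein genes, which are part of this total, took 27.2% to 43.6% of the counts with Method QE and 20.3% to 38.9% with Method BL. Without the mitochondrial genome in the total, Method QE had the higher subunit share in 5 of 8 animals (median of the differences 0.0168 percentage points).

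Members with shorter transcripts tended to have the larger fold changes. The longest RefSeq transcripts of the 36 tested members had a median of 949 bases, against 3350 bases over 11967 tested genes with a known length, which were 84.5% of the genes tested. Across the 36 members the fold change and the length had a Spearman rho of -0.53, and over the 11967 genes -0.27, which describes genes of the same libraries and not replicates. With GC content the rho was 0.037 over the members and -0.054 over the 11967 genes. The 18 shorter members (402 to 934 bases) had a median log2 fold change of 0.28 with 11 at an unadjusted p under 0.05. The 18 longer ones (963 to 2729 bases) had 0.15 with 3. The share at this threshold over all genes tested was 18.0%, with 8.37% higher with Method QE.

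With a per-library offset for length and GC content, the median log2 fold change was 0.078 over the subunits (22 of 29 above 0) and 0.062 over the assembly factors, beside 0.021 over all genes. Relative to the median of all genes, the subunits were then higher by 0.056, against 0.24 over nearly the same genes without the offset. The value of NDUFB3 was 0.42, that of NDUFS8 0.31, that of NDUFB11 0.25 and that of NDUFAF4 0.23, and no member passed the adjusted test. NDUFS6 had 0.19 and NDUFAF2 had 0.062. The study measured the length of RNA fragments in the extracts, those values were not used here, and their part in the fold changes was not tested.

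**Figure D5:**
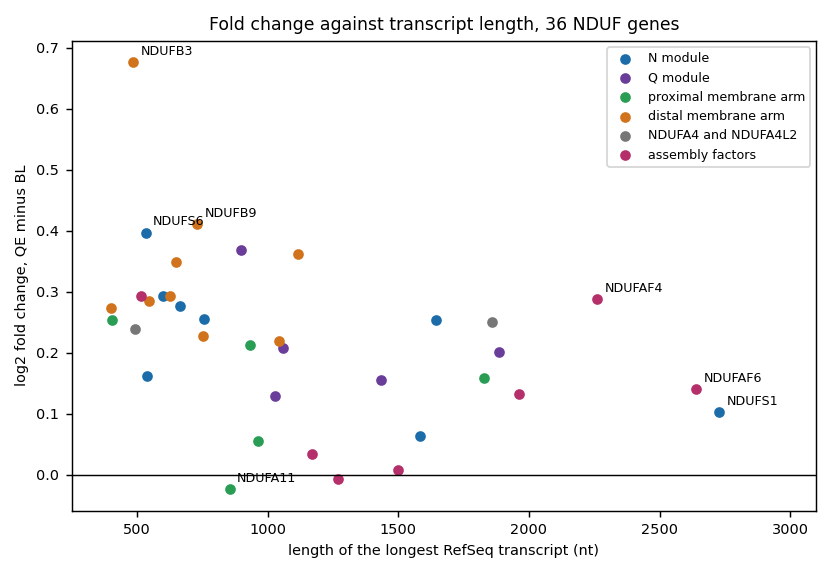
Log2 fold change (Method QE minus Method BL) of the 36 tested members against the length of the longest RefSeq transcript in bases, 1 point per gene, coloured by module. Points above 0.3 are of members with at most 1117 bases, and the longest member, NDUFS1 with 2729 bases, lies at 0.10.

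No difference by the ending of the Method BL library name passed the test. The interaction of method with the ending passed the adjusted test from edgeR for 0 of 14165 genes (0.00%) and for 0 of 36 members. At an unadjusted p under 0.05 there were 534 of the 14165 genes and 0 of the 36 members. The median over the subunits was 0.24 in the 5 animals with ending B and 0.23 in the 3 animals with ending R. Over the assembly factors these were 0.030 and 0.27, and this difference between endings was not tested as a group.

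Other genes of the respiratory chain had list medians between 0.079 for complex II and 0.58 for the mitochondrially encoded ND genes, beside 0.25 for the NDUF subunits. Over all genes tested, 18.0% had an unadjusted p under 0.05, and 8.37% had it with the higher level with Method QE. Of 9 complex I assembly factors with other names, 0 passed the adjusted test from edgeR (1 at an unadjusted p under 0.05) and the median log2 fold change was 0.11. TIMMDC1, an assembly factor of the membrane arm, had 0.29 (adjusted p = 0.0616 from edgeR), ECSIT had 0.18 and ACAD9 had 0.13. Of the 7 mitochondrially encoded ND genes 0 passed, with 4 at an unadjusted p under 0.05 and a median of 0.58, and ND1, ND3 and ND5 had 0.69, 0.58 and 0.58. The mitochondrially encoded genes thus had a larger median than the nuclear subunits, and this difference was not tested.

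Of the nuclear genes of complex II, 0 of 4 passed (0 at an unadjusted p under 0.05, median 0.079), with SDHA, its flavoprotein, at 0.21. The counts at an unadjusted p here stand beside 18.0% of all genes tested, or 8.37% higher with Method QE. Of complex III 0 of 5 passed (2 at an unadjusted p under 0.05, median 0.15), with UQCRB at 0.39 and UQCRQ at 0.33. Of complex IV 0 of 12 passed (3 at an unadjusted p under 0.05, median 0.20), with COX7A1, the heart and muscle form of a small subunit, at 0.53 (adjusted p = 0.0588 from edgeR) and COX4I1 at 0.27. Of 13 nuclear ATP synthase genes, 2 were higher with Method QE, ATP5ME by 0.63 (adjusted p = 0.0219 from edgeR) and ATP5F1E by 0.32 (adjusted p = 0.0414 from edgeR), with a median of 0.20. With 0.854% of all genes called higher, these 2 genes of 13 are a count too small to read further.

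Some members share their place in the genome with another gene. The table lists 9 members that overlap another entry, 7 of them on the other strand and 2 on the same strand. NDUFS7 lies whole within an entry for DAZAP1 on the same strand, over 11374 bases, and NDUFS3 shares 1485 bases with PTPMT1. NDUFB10 overlaps an entry at the place of RPS2 on the other strand over 2762 bases, and NDUFA2 lies whole within TMCO6, also on the other strand. Whether reads were counted by strand is not given in the sources used here, so counts of NDUFA2, NDUFA4L2, NDUFAF3, NDUFAF8, NDUFB10, NDUFB11 and NDUFC2 may include reads of their neighbours. Estimated counts were not whole in at least 1 library for 17 of 37 members, which marks reads that were split between entries, and all 16 values of NDUFB10, NDUFB11 and NDUFS1 were so.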

How the data were processed

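Total RNA was depleted of rRNA and sequenced with a stranded kit. Per the labels and the study's methods, the authors used STAR 2.7.8a and Partek with the genome build Mmul_10 and estimated counts per gene from Ensembl release 110. The deposited values are estimated counts, not normalized, for 19425 genes, of which 5148 have an identifier only, and 76.7% of the values lie within 1e-06 of a whole number. No gene had fewer than 10 counts in all. One entry broken over several lines was joined. Method labels come from the titles and the method field, although the protocol text of every sample gives the Method QE kit.

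Estimated counts were rounded, filtered with filterByExpr, scaled by TMM and tested with edgeR 4.0.16 (R 4.3.3) by the quasi-likelihood F test with animal and method, with Benjamini-Hochberg adjustment over 14165 genes and a threshold of 0.05. Standard errors (SE) are the size of the log2 fold change over √F. Log2 CPM has a prior count of 2. Animals were taken from the library names for pairing, since replicate numbers follow another order in each method. Deviations of the libraries of an animal from their method's mean correlated with r of 0.345 to 0.637 over 8 pairs, and 8 of 8 matched their own animal best. With the animal as a block, p-values measure how the difference between methods varied from animal to animal. That spread includes the noise of single extractions and libraries.

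All members are accounted for. Values of the libraries are given for the 3 subunits and 2 assembly factors with the smallest p, the most and least abundant by CPM and those with the highest and lowest fold change, core subunits are given by fold change, and up to 3 genes of each other list by smallest p. The members and lists were chosen with earlier results of these data known. RefSeq transcripts and gene starts of Mmul_10 gave lengths, GC content and upstream windows for all 37 members. Length and GC offsets were natural splines with 5 degrees of freedom fitted per library.

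Alternatives were no block, other scalings, DESeq2 1.42.0, limma-voom (limma 3.58.1), other filters, each animal left out, each name ending alone and the length and GC offset. Total-count scaling and the genes with a length without the offset were added after the data were seen. The edgeR step was tested on simulated data. Protein sequences were not used here.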

Additional observations from a re-analysis of the deposited data

Results flagged for a closer look

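In Method QE, the library of animal r16010 stood apart in the share of gene counts taken by the 29 NDUF subunits. Its share was 0.204%, the next highest Method QE library had 0.155%, and the gap made up 0.617 of the range of the 8 libraries, against a critical value of 0.526. It was the only such value among 78 groups of 8 libraries examined, of which chance would mark about 1 in 20. The Method BL library of the same animal, at 0.205%, was also the highest of its method.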

How the results depend on the processing

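Over 21 alternatives, 16 of 36 tested members kept the sign of their fold change and 20 changed it in at least 1, in each case with no call. The count of genes called among all genes was 5 with no replicate block, where 0 members were called and the medians were 0.19 over the subunits and 0.096 over the assembly factors. It was 592 with DESeq2 (3 subunits and 1 assembly factor called: NDUFB11, adjusted p = 0.0495, NDUFB9, 0.0373, NDUFS6, 0.0452, and NDUFAF4, 0.0243), 49 with name ending B alone, 0 with ending R alone (870 at an unadjusted p under 0.05), 37 with the length and GC offset, 115 over genes with a length without it, and 709 with total counts, where the median over the assembly factors was -0.10. Other scalings, filters and limma-voom gave 262 to 363 genes and 0 members. Leaving out 1 animal at a time gave 37 (without rh2740) to 355 genes (without r15045), 0 to 4 subunits and 0 assembly factors called. Without animal r15045, NDUFA1 (adjusted p = 0.0446), NDUFB10 (0.0236), NDUFB9 (0.0420) and NDUFS8 (0.0476) passed edgeR's test, beside 2.51% of all genes. The median over the subunits ranged from 0.16 (without rh2957) to 0.31 (without r15045) and that over the assembly factors from 0.040 (without rh2957) to 0.17 (without r16010). The median paired difference in the subunit share ranged from -0.0010 to 0.0003 percentage points. The cause of these changes was not tested.

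Signs reversed with small values. With no replicate block, NDUFV3 was -0.041. NDUFAF7 was -0.016 with upper quartile scaling and -0.00016 with limma-voom, and NDUFAF5 was 0.0075 with no filter. With ending B alone NDUFAF3 was -0.046, NDUFAF7 -0.089 and NDUFC2 -0.010, and with ending R alone NDUFA11 was 0.048, NDUFAF5 0.12 and NDUFV3 -0.081. With the length and GC offset NDUFA1 was -0.0090, NDUFA2 -0.063, NDUFA4 -0.0014, NDUFAF3 -0.00013, NDUFAF7 -0.080, NDUFC2 -0.098, NDUFS3 -0.014 and NDUFV3 -0.0075. With total counts, which shift the median of all genes to -0.24, NDUFA10 was -0.078, NDUFA2 -0.075, NDUFA5 -0.037, NDUFA8 -0.023, NDUFA9 -0.082, NDUFAF1 -0.10, NDUFAF3 -0.20, NDUFAF6 -0.097, NDUFAF7 -0.23, NDUFB2 -0.0087, NDUFB5 -0.017, NDUFC2 -0.18, NDUFS1 -0.13, NDUFS3 -0.11, NDUFS7 -0.027 and NDUFV3 -0.18. With 1 animal left out, NDUFA11 ranged from -0.14 to 0.069, NDUFAF3 from -0.044 to 0.073, NDUFAF5 from -0.099 to 0.057, NDUFAF7 from -0.025 to 0.059, NDUFC2 from -0.034 to 0.12 and NDUFV3 from -0.030 to 0.25. Depth limits NDUFAF8, NDUFA4L2, NDUFAF2 and NDUFB3, which had the fewest counts.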
